A study of Drosophila mojavensis with 14 samples.

Results

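The 4 transcripts named Acp on a Drosophila mojavensis expression array are described here in the lower reproductive tract of females: Acp2, Acp11, Acp7 and Acp48. They are all the transcripts whose array name contains Acp, 4 of 14519 on the array, and each was measured by 4 probes, 16 of 71998 in all. The rule uses the name and no measured value, but the set was proposed with earlier results of these data known. The files pair these names with no gene description, and 0 of the 4 was found in a RefSeq table of 15130 D. mojavensis genes, so the function of each single member was not analysed here.

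Acp is the usual abbreviation for accessory gland protein. In Drosophila the paired accessory glands of the male secrete most proteins of the seminal fluid, among them small peptides, proteases, protease inhibitors and lectins, and these pass to the female with the sperm during copulation. In D. melanogaster, seminal fluid proteins are known to raise egg laying, to lower the female's readiness to mate again and to help sperm enter and stay in the storage organs. The lower reproductive tract of the female, the uterus with its sperm storage organs and glands, is the tissue that receives them. D. mojavensis and D. arizonae are closely related cactus-breeding species that can mate with each other.

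All females came from 1 isofemale line of D. mojavensis (ANZA 402.17), a line founded by a single wild female, and the foreign males came from 1 isofemale line of D. arizonae. The 7 groups were females mated to D. arizonae males (heterospecific) and taken 15 min, 2 h or 6 h after copulation, females mated to D. mojavensis males (conspecific) and taken at the same 3 times, and virgin females. Flies were 10 to 12 days old after ageing as virgins, 2 males were used per vial for the mated groups, and 20 to 25 tracts were pooled for a sample. Each group had 2 samples, which the labels call biological replicates, so 14 1-colour arrays were compared. In such bulk tissue, fewer cells of a type and less RNA per cell cannot be told apart, nor can RNA made by the female and RNA that came with the ejaculate.

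Levels are log2 intensities after background correction and quantile normalization, with the 4 probes of a transcript summarised to 1 value per array. The arrays differed in brightness, with raw upper quartiles of 943 to 2912, and 4 of them were dim: conspecific 15 min replicate 2, conspecific 2 h replicate 1, conspecific 6 h replicate 1 and virgin replicate 2. A transcript was taken as above background on an array where its level exceeded a limit set from that array's own values, which lay between 7.44 and 7.73. The array images were read on 2 days, per the file headers, and these days were nearly aligned with the male's species: 5 of 6 heterospecific arrays were read on day 1, and 5 of 6 conspecific and both virgin arrays on day 2. Of the lists of known genes set up to check the tissue, 0 of 30 seminal fluid genes, 0 of 10 genes of the female tract, 0 of 5 of fat body and yolk, 0 of 4 of muscle and 0 of 3 of neurons carried a name found on the array, so the labelled tissue could not be checked against its markers.

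Acp2 was above background on every heterospecific array and on no other. After heterospecific mating its level was 9.94 and 12.00 at 15 min, 9.46 and 9.91 at 2 h, then 9.26 and 8.79 at 6 h. After conspecific mating it was 6.83 on both arrays at 15 min, 6.60 and 6.65 at 2 h, then 6.60 and 6.84 at 6 h, and in virgins it was 6.68 and 6.96. All 6 heterospecific arrays were thus above their background limit, while all 6 conspecific and both virgin arrays were below it. Heterospecific and other arrays did not overlap.

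In group means, the order was heterospecific 15 min (10.97 ± 1.45, SD, n = 2), heterospecific 2 h (9.69 ± 0.32) and heterospecific 6 h (9.03 ± 0.33), followed by the 4 groups below background. Those 4 lay between 6.63 and 6.83, in the order conspecific 15 min, virgin, conspecific 6 h and conspecific 2 h, and each overlapped with its neighbours. The step between heterospecific 15 min and 2 h was barely outside the spread of the arrays, since the lower array at 15 min was at 9.94 and the higher array at 2 h at 9.91. Replicate 2 of heterospecific 15 min was the brightest Acp2 array of the study and the only heterospecific array read on day 2. The raw upper quartiles of replicates 1 and 2 of that group were 2121 and 2015.

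**Figure D1:**
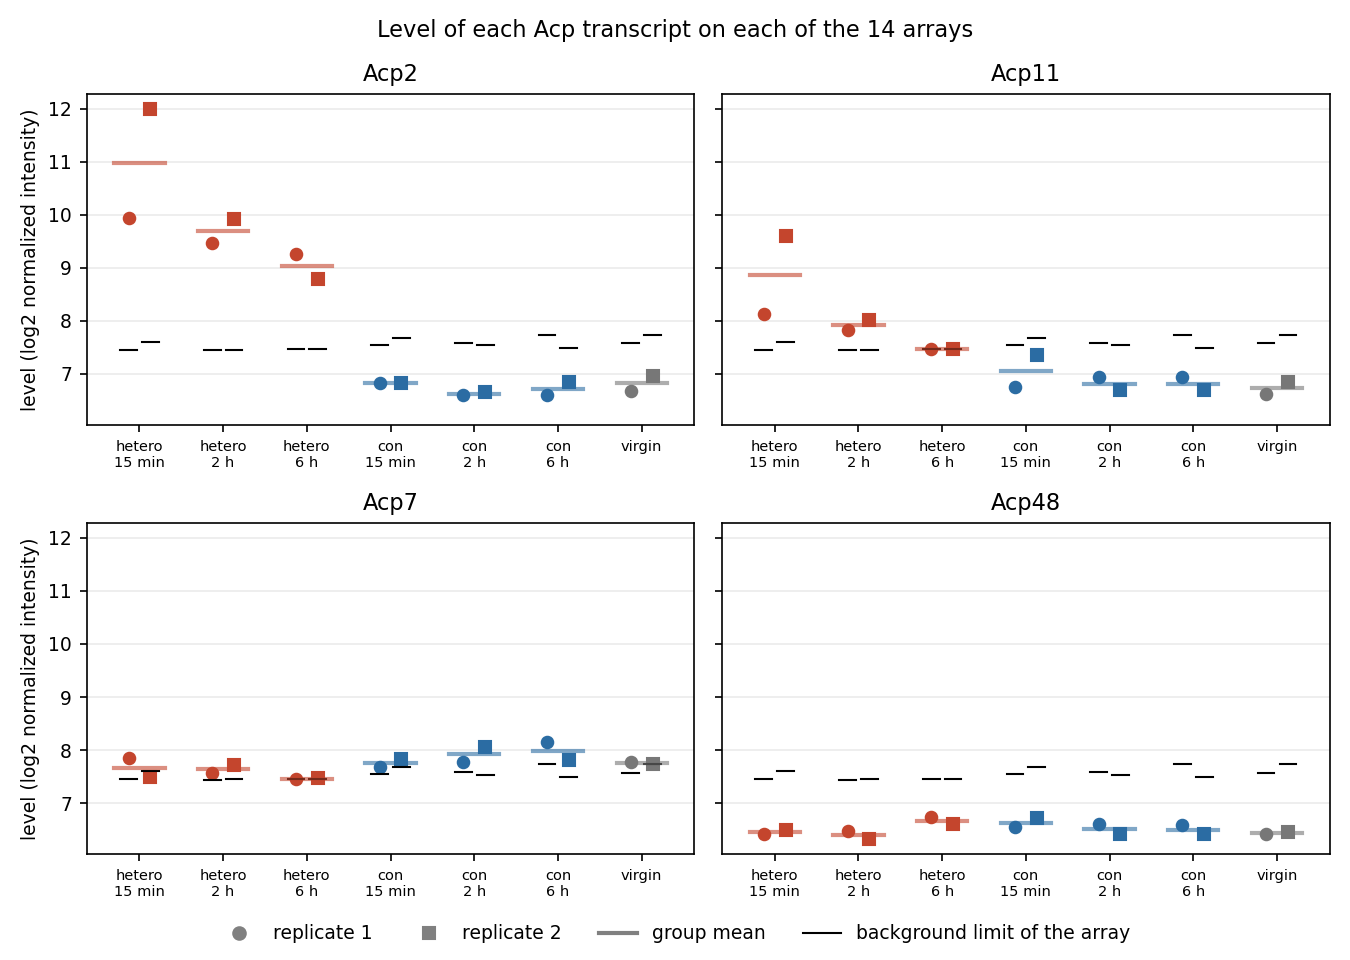
Level (log2 normalized intensity) of each Acp transcript on each of the 14 arrays by group, with circles for replicate 1, squares for replicate 2, a coloured line for the group mean and a short black line for each array's background limit. Acp2 and Acp11 lie above the limit on the 6 heterospecific arrays and below it on the conspecific and virgin arrays, Acp7 lies near the limit in every group, and Acp48 lies below it on all 14.

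The unprocessed probe values showed the same separation. The median raw intensity of the 4 Acp2 probes was 1094 and 4343 at 15 min, 1080 and 1442 at 2 h, then 779 and 596 at 6 h after heterospecific mating. On the conspecific arrays this median was between 156 and 199, and on the virgin arrays it was 184 and 214. The lowest single Acp2 probe value on any heterospecific array was 512, and the highest on a conspecific or virgin array was 238.

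Against conspecific mating, Acp2 was higher after heterospecific mating at 15 min by at least 10.3-fold (log2 difference 4.14, SE 0.49, limma adjusted p = 0.014). Averaged over the 3 times it was higher by at least 4.92-fold (log2 difference 3.17, SE 0.28, adjusted p = 0.0013), the fourth smallest p of all transcripts in that comparison. These folds are lower bounds, because the conspecific level was not measurable above background. The SE and p come from 1 spread shared by all 7 groups. For Acp2 the SD was 1.45 at heterospecific 15 min and at most 0.33 in any other group. At 15 min they therefore do not measure the spread of the heterospecific group itself. At 2 h the log2 difference was 3.06 (at least 4.37-fold, adjusted p = 0.226) and at 6 h it was 2.31 (at least 2.66-fold, adjusted p = 0.502), and neither passed the threshold of 0.05. The 2 arrays of each mating type did not overlap for 3 of 4 members at 2 h and for 4 of 4 at 6 h, where 49.5% and 48% of all transcripts were apart in this way. These counts hold both directions: Acp2 and Acp11 were higher and Acp7 was lower at both times. The member added at 6 h was Acp48, which was below background.

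Acp2 was thus 1 of 4 members called at 15 min, where the test called 0.0551% of all transcripts, and 1 of 4 over the 3 times, where it called 0.186%. At 2 h and at 6 h limma called 0 of 4 members, with 0.0207% and 0.00689% of all transcripts called. An unadjusted p under 0.05 was reached by 2 of 4 members at each of these times, beside 1136 and 1428 of all 14519 transcripts. At 2 h these members were Acp2 and Acp11, both higher. At 6 h they were Acp2, higher, and Acp7, lower (log2 difference -0.52). Over the 3 times, the 6 heterospecific arrays did not overlap with the 6 conspecific arrays for 2 of 4 members, Acp2 and Acp11, against 1.26% of all transcripts. The median log2 difference of the 4 members over the 3 times was 0.57, beside a median of -0.00385 over all transcripts, and that median lay near none of the 4 single values.

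The size at 15 min depended on which heterospecific array was kept. Without heterospecific 15 min replicate 1 or replicate 2 the fitted log2 difference was 5.17 or 3.11, and the fold at least 20.9 or at least 5.03. Each of these refits leaves 1 array in that group, whose spread then no longer enters the estimate. Their p-values are therefore no test of the call at 15 min. It was lost without either conspecific 15 min array (adjusted p = 0.129 and 0.141), without the 4 dim arrays (0.216), with no background correction (0.0815), with the slope of the probes along the transcript as a covariate (0.0595) and in a fit of those 2 groups alone (0.415). Averaged over the 3 times the call was kept without any 1 of the 14 arrays (adjusted p up to 0.0103), and of the other alternatives only leaving out the 4 dim arrays ended it (log2 difference 3.12, adjusted p = 0.0503). The calls at 2 h and 6 h depended in part on the 15 min group. Without either of its heterospecific arrays, their distance no longer entered the estimate of the spread. Acp2 was then called at 2 h and 6 h, at unchanged log2 differences of 3.06 and 2.31. With all arrays kept, it was called at 2 h with a normexp offset of 0 (limma adjusted p = 0.0144), median scaling (0.0391) and trend and robust settings (0.0451).

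Because reading day and mating type were nearly aligned, the comparison was also made with the day as a block and within a day. With the day as a block the log2 difference of Acp2 was 4.59 at 15 min (adjusted p = 0.00817) and 3.78 over the 3 times (adjusted p = 0.00688). Only heterospecific 15 min and conspecific 6 h held arrays of both days, so the day effect rests on those groups. In the former, Acp2 was 9.94 on day 1 and 12.00 on day 2. In the latter, it was 6.84 and 6.60. The block cannot tell a day effect from these distances, and it moved the difference at 2 h from 3.06 to 3.97. This limit holds for each Acp transcript. On day 2 alone, where 1 heterospecific array of 15 min lay, it was 5.17 at 15 min (adjusted p = 0.00773), and on day 1 alone, where 1 conspecific array of 6 h lay, it was 2.19 at 6 h (adjusted p = 0.0183). Over both days together these 2 values were 4.14 and 2.31. Within a day, the lone array was assumed to vary like the others of that day.

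Against virgins, Acp2 was at least 9.98-fold higher 15 min after heterospecific mating (log2 difference 4.15, SE 0.49, adjusted p = 0.0142), and at least 4.73-fold higher over the 3 times (log2 difference 3.07, SE 0.40, adjusted p = 0.0227). It was 1 of 4 members called at 15 min, with 0.062% of all transcripts called, and 1 of 4 over the 3 times, with 0.103% called. Over the 3 times 2 of 4 members, Acp2 and Acp11, did not overlap between the 6 heterospecific and 2 virgin arrays, against 13.9% of all transcripts. At 2 h the log2 difference was 2.87 (at least 4.10-fold, adjusted p = 0.105) and at 6 h it was 2.20 (at least 2.59-fold, adjusted p = 0.114). There limma called 0 of 4 members (0.0689% of all transcripts at 2 h and 0.165% at 6 h). An unadjusted p under 0.05 was reached by 2 and 1 of them, beside 2195 and 2583 of all 14519 transcripts.

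The comparisons with virgins rest on 2 virgin arrays, which all of them share. Their SE and p also use 1 spread shared by all groups, so at 15 min they do not measure that of the heterospecific group itself. The size at 15 min depended on which heterospecific array was kept: without replicate 1 the log2 difference was 5.18 (at least 20.3-fold) and without replicate 2 it was 3.12 (at least 4.89-fold). Each of these refits leaves 1 array in that group, so no call is read from it. At 15 min the call of Acp2 was lost without virgin replicate 1 or 2 (adjusted p = 0.0792 and 0.0899), without the 4 dim arrays (0.22), with no background correction (0.0735) and in a fit of those 2 groups alone (0.999). Over the 3 times it was lost without virgin replicate 2 (0.248) and without any 1 of the 4 heterospecific arrays of 2 h and 6 h (0.0631 to 0.0844). It was also lost with no background correction (0.0966), in a fit of the compared groups alone (0.0719), with array weights (0.0874) and without the 4 dim arrays (0.206). Without either heterospecific 15 min array Acp2 was also called at 2 h (0.00197) and at 6 h (0.00531).

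After conspecific mating Acp2 stayed below background at all 3 times. Its fitted log2 difference from virgins was 0.01 at 15 min (95% interval -1.08 to 1.10), -0.20 at 2 h and -0.10 at 6 h. The interval uses the spread shared by all groups, whereas the SD was 0.003 at conspecific 15 min and 0.20 in virgins. No fold is given, because neither group was above background. Of the 4 Acp transcripts, limma called 0 at 15 min, at 2 h, at 6 h and over the 3 times. It called 0.062%, 0.0344%, 0.0276% and 0.0413% of all transcripts there. In each of these comparisons 0 of 4 had an unadjusted p under 0.05, beside 517, 522, 1168 and 568 of all 14519 transcripts.

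**Figure D2:**
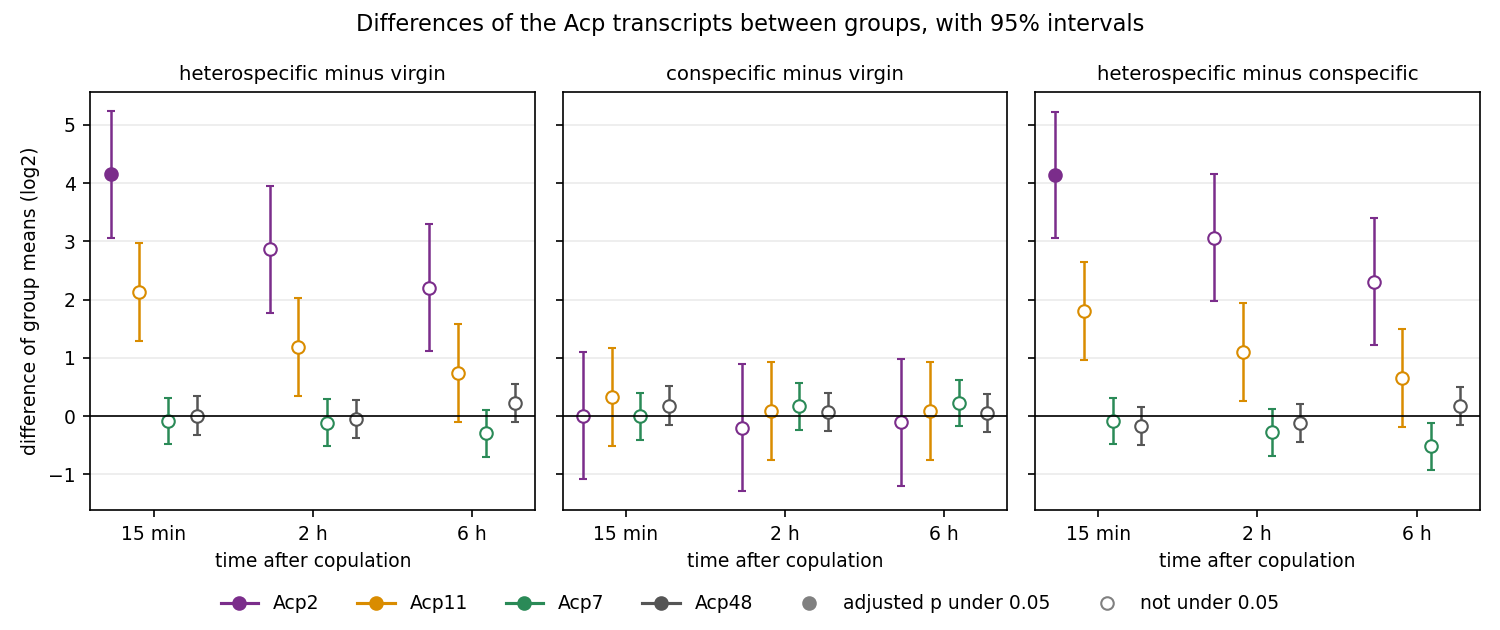
Difference of group means (log2) of each Acp transcript at 15 min, 2 h and 6 h after copulation, for heterospecific minus virgin, conspecific minus virgin and heterospecific minus conspecific, with 95% intervals from the fit over all 14 arrays and filled points where the adjusted p was under 0.05. The filled points are Acp2 at 15 min in the first and the last panel, and in the middle panel all intervals include 0.

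The Acp2 probes lay close together, with start positions of 55, 62, 65 and 68 in the transcript. Probe length was not given, but probes longer than these steps overlap. The 4 may thus read largely the same stretch, and they do not count as replicates. Each of the 4 was above background on 6 of 6 heterospecific arrays and on 0 of 6 conspecific and 0 of 2 virgin arrays. In a fit over all probes, 4 of 4 were called between the mating types at 15 min (log2 difference 3.77 to 4.48, adjusted p = 0.00908 to 0.028), where 0.0486% of all probes were called. Over the 3 times 4 of 4 were called as well (2.83 to 3.30, adjusted p = 0.000433 to 0.00205), with 0.0972% of all probes called. Against virgins, 4 of 4 were called at 15 min (3.89 to 4.29, adjusted p = 0.00502 to 0.0278) and over the 3 times (2.89 to 3.17, adjusted p = 0.0112 to 0.0473), with 0.0569% and 0.075% of all probes called. On the heterospecific arrays the levels of the 4 probes were within 0.23 to 0.63 of each other.

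**Figure D3:**
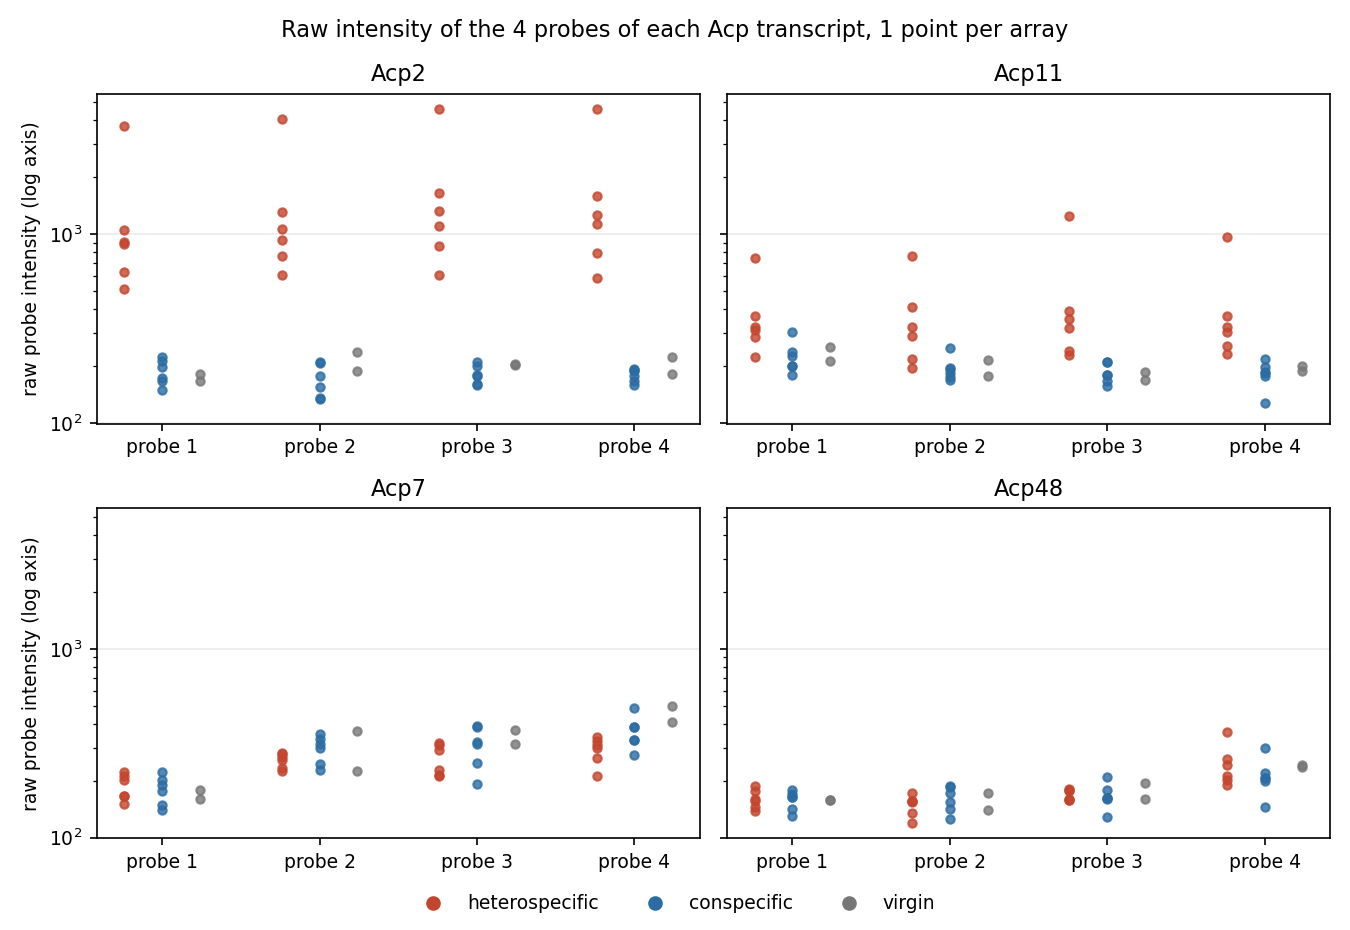
Raw intensity (log axis) of the 4 probes of each Acp transcript, in order of their position, with 1 point per array and the heterospecific arrays left of the conspecific and virgin arrays. For Acp2 the heterospecific points lie at 512 and above and all others at 238 and below, for Acp11 the points of probes 3 and 4 do not overlap, and for Acp7 and Acp48 heterospecific and conspecific arrays overlap at each probe.

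Acp11 showed the same order of the heterospecific groups as Acp2, at values nearer to background. After heterospecific mating the 2 arrays of 15 min had levels of 8.13 and 9.59, those of 2 h 7.82 and 8.02, and those of 6 h 7.47 and 7.46. After conspecific mating its level was 6.74 and 7.36 at 15 min, 6.93 and 6.69 at 2 h, then 6.94 and 6.69 at 6 h, and in virgins it was 6.62 and 6.84. It exceeded the background limit on 6 of 6 heterospecific, 0 of 6 conspecific and 0 of 2 virgin arrays, but at 6 h it only reached the limit, which was 7.46 on both of those arrays. The limits of the conspecific and virgin arrays were higher, at 7.49 to 7.73. The heterospecific levels at 6 h would have been below each of them.

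Group means of Acp11 after heterospecific mating were 8.86 ± 1.03 at 15 min, 7.92 ± 0.14 at 2 h and 7.47 ± 0.01 at 6 h (SD, n = 2), and the arrays of these groups did not overlap with each other. The 3 conspecific groups (means of 6.81 to 7.05) and virgins (6.73 ± 0.16) overlapped. The highest of their values, 7.36, was on the dim array conspecific 15 min replicate 2 and lay just under the 7.46 of heterospecific 6 h. As for Acp2, the brightest Acp11 array was heterospecific 15 min replicate 2.

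None of the differences of Acp11 passed the threshold. Between the mating types its log2 difference was 1.81 at 15 min (SE 0.38, a ratio of at least 2.37, adjusted p = 0.462), 1.11 at 2 h, 0.65 at 6 h and 1.19 over the 3 times (SE 0.22, adjusted p = 0.104). Against virgins the log2 difference was 2.13 at 15 min (a ratio of at least 2.31, adjusted p = 0.157), 1.19 at 2 h and 0.74 at 6 h, and after conspecific mating it was 0.32, 0.09 and 0.09 at the 3 times. At 6 h no fold is given, because the heterospecific mean did not exceed the bound for the other groups.

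The call of Acp11 changed with single arrays and with the reading day. Refits without a heterospecific 15 min array leave 1 array in that group, whose spread then no longer enters the estimate. Their p-values can therefore fall even where the difference shrinks, and they are no test of the call. Without heterospecific 15 min replicate 1 its log2 difference between the mating types was 2.54 at 15 min (adjusted p = 0.00387) and 1.43 over the 3 times (adjusted p = 0.00198), and that from virgins was 2.86 at 15 min (adjusted p = 0.00146) and 1.60 over the 3 times (adjusted p = 0.00935). Without replicate 2 of that group the differences at 15 min were smaller and not called, at 1.08 between the mating types (adjusted p = 0.987) and 1.40 against virgins (adjusted p = 0.403). Over the 3 times they were then 0.94 between the mating types (adjusted p = 0.0483) and 1.11 against virgins (adjusted p = 0.0883). With the day as a block the log2 difference at 15 min was 2.23 between the mating types (adjusted p = 0.0482) and 2.56 against virgins (adjusted p = 0.0238). The day effect there rests on the groups read on both days, among them heterospecific 15 min with its arrays far apart. On day 2 alone, where that group held 1 array, neither difference was called.

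The 4 Acp11 probes started at positions 45 to 88. The log2 difference between the mating types over the 3 times was positive for all 4, at 0.86 to 1.46 (adjusted p = 0.077 to 0.223), and 0 of 4 were called. The probe at position 76 had 228 to 1239 raw units on the heterospecific arrays, against 156 to 211 on the conspecific and 168 to 186 on the virgin arrays. The probe at position 45 overlapped, with 224 to 748 on the heterospecific, 179 to 303 on the conspecific and 212 to 251 on the virgin arrays.

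After heterospecific mating, the array values of Acp2 and Acp11 at 15 min lay above those at 2 h and at 6 h, but the differences over time did not pass the test. For Acp2 the log2 difference was -1.28 at 2 h against 15 min (SE 0.49, adjusted p = 0.665) and -1.95 at 6 h against 15 min (adjusted p = 0.263). For Acp11 it was -0.94 (adjusted p = 0.684) and -1.39 (adjusted p = 0.292). Called members were 0 of 4 in both comparisons, with 0.0207% and 0.0276% of all transcripts called. In each, 2 of 4 had an unadjusted p under 0.05, beside 1033 and 1424 of all 14519 transcripts. Arrays of the 2 times did not overlap for 2 of 4 members at 2 h and 4 of 4 at 6 h, where 47.3% and 48.9% of all transcripts were apart as well. At 6 h Acp2, Acp11 and Acp7 were lower than at 15 min, while Acp48, below background, was higher.

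The direct test of whether the change at 6 h against 15 min differed between the mating types gave -1.83 for Acp2 (unadjusted p = 0.0239, adjusted p = 0.983), and limma called 0 of 4 members and 0% of all transcripts. After conspecific mating 0 of 4 members were called at 2 h or 6 h against 15 min (0.0138% and 0.11% of all transcripts). There 0 of 4 had an unadjusted p under 0.05, beside 703 and 1858 of all 14519 transcripts. The result over time turned on the 2 heterospecific 15 min arrays, which moved it in opposite directions. A refit without either leaves 1 array in that group, so its p-values do not measure the spread there. Without heterospecific 15 min replicate 1 the log2 difference of Acp2 at 6 h against 15 min was -2.97 (adjusted p = 0.00218), that at 2 h was -2.31 (0.00948), that of Acp11 at 6 h was -2.13 (0.013), and the difference between the mating types for Acp2 was -2.86 (0.0191). Without replicate 2, the brighter one, none of these was called: Acp2 was at -0.26 at 2 h (adjusted p = 1) and -0.92 at 6 h (0.716), Acp11 at -0.21 (1) and -0.66 (0.899), and the difference between the mating types for Acp2 was -0.81 (1). On day 1 alone, where only that replicate of heterospecific 15 min lay, the value of Acp2 at 6 h was -0.92 (adjusted p = 0.0992).

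Acp7 was measured near its background limit in all groups. Its level was 7.85 and 7.50 at 15 min, 7.57 and 7.71 at 2 h, then 7.46 and 7.47 at 6 h after heterospecific mating. After conspecific mating it was 7.68 and 7.83 at 15 min, 7.78 and 8.07 at 2 h, then 8.15 and 7.81 at 6 h, and in virgins it was 7.78 and 7.73. It exceeded the limit on 4 of 6 heterospecific, 6 of 6 conspecific and 1 of 2 virgin arrays, and its 14 values covered only 0.69 on the log2 scale.

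The group means of Acp7 were in an order unlike that of Acp2 and Acp11, with conspecific 6 h highest (7.98 ± 0.24) and heterospecific 6 h lowest (7.46 ± 0.01). Neighbours in this order overlapped, except heterospecific 2 h and 6 h. The log2 difference between the mating types was -0.08 at 15 min, -0.28 at 2 h and -0.52 at 6 h (unadjusted p = 0.0161, adjusted p = 0.502). Over the 3 times it was -0.29, with a 95% interval of -0.52 to -0.06 (unadjusted p = 0.0178, adjusted p = 0.206), so it did not pass over all transcripts.

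The probes of Acp7 did not give 1 picture. The probe at position 101 had 151 to 223 raw units on the heterospecific, 140 to 224 on the conspecific and 160 to 180 on the virgin arrays, and was above the probe limit on none of the 14. The probe at position 313 had 213 to 343 on the heterospecific, 273 to 488 on the conspecific and 410 to 498 on the virgin arrays, and was above the limit on 5 of 6, 6 of 6 and 2 of 2. In the fit over all probes the log2 differences between the mating types over the 3 times ranged over -0.61 to 0.17 (adjusted p = 0.24 to 0.656).

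Acp48 was not above background on any of the 14 arrays, with levels of 6.32 to 6.73 after heterospecific mating, 6.41 to 6.71 after conspecific mating and 6.43 to 6.46 in virgins. No fold is given for it. Its fitted log2 difference between the mating types over the 3 times was -0.04 (95% interval -0.23 to 0.15). Its probes at positions 338 to 355 had 119 to 210 raw units on all arrays, and the probe at position 997 had 190 to 363 on the heterospecific, 145 to 297 on the conspecific and 236 to 242 on the virgin arrays. Only 1 of these 14 values, on a heterospecific array, was above the probe limit.

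Across the 14 arrays, the levels of Acp2 and Acp11 had a Pearson r of 0.94, and after the group means were removed r was 0.86. These r are descriptions, since the 2 values of a point share their library, and the 2 heterospecific 15 min arrays were far apart for both transcripts. Acp7 had r of -0.61 with Acp2 and -0.48 with Acp11 over the 14 arrays, and Acp48 had r of -0.22 to -0.07 with the other 3.

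The transcripts most like each member over the 14 arrays were sought among 1987 that were above background in a group and whose group means spanned at least 1 on the log2 scale. For Acp2 they were GI18622 (r = 0.998), GI19546 (r = 0.98) and GI17858 (r = 0.97), which the files name by number only. GI18622 had levels of 9.60 and 11.56 at 15 min, 9.04 and 9.45 at 2 h, then 8.76 and 8.57 at 6 h after heterospecific mating, and 6.37 to 6.85 on the conspecific and virgin arrays. All 3 were above background in the heterospecific groups and in no other group, as Acp2 was. The brightest array of all 3 was that of Acp2, heterospecific 15 min replicate 2. Because they were chosen by their r with Acp2 over these same arrays, both likenesses largely follow from the choice.

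For Acp11 they were GI17832 (r = 0.98), GI17858 (r = 0.96) and GI17833 (r = 0.96). GI17832 had group means of 9.11, 8.27 and 7.74 at 15 min, 2 h and 6 h after heterospecific mating and was above background in no other group. GI17833 was above background in all 7 groups, with means of 11.25, 10.39 and 9.83 after heterospecific mating, 8.66, 8.10 and 8.16 after conspecific mating, and 7.97 in virgins. Among the 1986 candidates left after each member itself, 14 had r over 0.9 with Acp2 and 14 with Acp11.

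Acp7 had no close companion: its highest r were 0.71 with GI12579, 0.67 with GI22748 and 0.67 with GI17295, and 0 of 1987 candidates reached 0.9. With the group means removed these r were 0.52, 0.29 and 0.24. No companion was sought for Acp48, which was below background in every group.

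**Figure D4:**
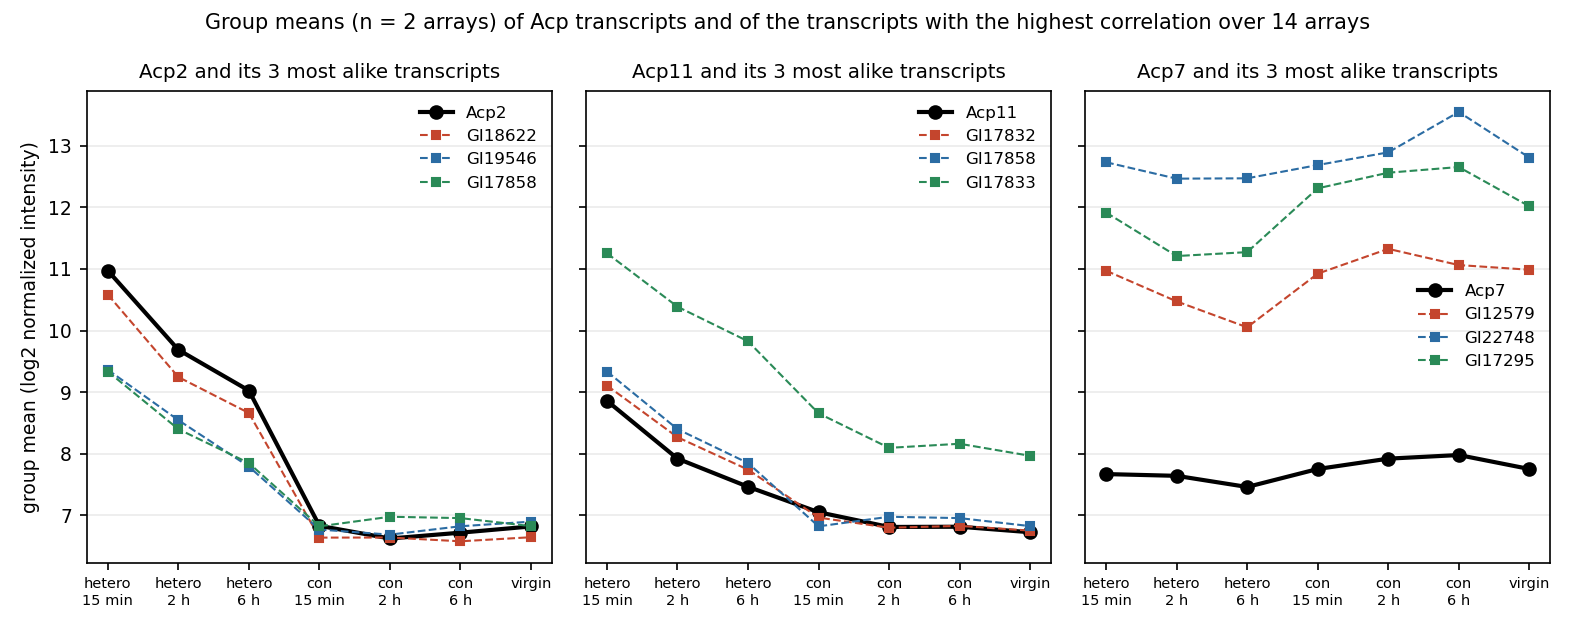
Group means (log2 normalized intensity, n = 2 arrays each) of Acp2, Acp11 and Acp7 (black) and of the 3 transcripts with the highest Pearson r with each over the 14 arrays (coloured, dashed). The companions of Acp2 and Acp11 are highest at heterospecific 15 min and lower at each later heterospecific time, while those of Acp7 lie well above it in level.

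Transcripts named Tes, taken here as candidate markers of testis from their name alone, were set beside the Acp transcripts. Of 25 Tes transcripts, 12 were above background in virgins, 14 in at least 1 group and 11 in none. Between the mating types over the 3 times 0 of 25 were called, their median log2 difference was -0.08 (-0.95 to 0.82) and the lowest adjusted p was 0.172. Their summed intensity was 70825 to 83983 at heterospecific 15 min, 67427 to 70106 at heterospecific 2 h and 69763 to 74506 at heterospecific 6 h, against 77545 to 79391, 77290 to 82209 and 63768 to 89170 at the same conspecific times and 78905 to 86032 in virgins. The Tes sums of the 2 mating types overlapped at 15 min and 6 h, and at 2 h the heterospecific sums were the lower ones. A second list chosen by name, the 6 transcripts named moj, was above background in virgins for all 6, and 0 of 6 were called between the mating types over the 3 times (lowest adjusted p = 0.193). Their median log2 difference was 0.23 (0.11 to 0.39), positive for all 6. The moj sums at 2 h were 87102 to 89804 on the heterospecific arrays, against 65566 to 74923 on the conspecific arrays, and at 15 min and 6 h the 2 mating types overlapped. What the name moj stands for was not given in the sources used here. Whether RNA of the Acp, Tes or moj transcripts came from the male was not tested.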

How the data were processed

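Lower reproductive tracts of D. mojavensis females were measured on 14 NimbleGen 1-colour (Cy3) arrays, 2 per group, from amplified RNA. The authors deposited a raw intensity for each perfect-match probe, read with NimbleScan (2.4.67) per the file headers. No mismatch value was above 0. RMA is named in the submitters' processing notes, but their value table held the raw intensity (0 probes differed), so normalization was done here.

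Intensities were corrected with limma's normexp (offset 50), quantile normalized, log2 transformed and combined over the probes of a transcript by median polish (R 4.3.3, limma 3.58.1). This offset makes differences of dim transcripts look smaller. No deposited log2 values from the authors were used. The background limit of an array was the mode of its transcript values plus 2 SDs, taken about the mode over the lower values. A transcript below it on both arrays of a group counts as not above background there. A fold against such a group uses the array's limit in place of any value under it and is written as at least N-fold.

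Groups were compared with limma over all 14 arrays (1 mean per group, 7 residual and 3.56 prior degrees of freedom), in 17 comparisons, 2-sided, with Benjamini-Hochberg adjustment over all 14519 transcripts and a threshold of 0.05. The probe fit was adjusted over 71998 probes. The number of arrays limits the precision. The fit was tested on simulated data.

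The named transcripts are the 4 members and, for each member above background in a group, the 3 with the highest r. The members, lists and comparisons were chosen with earlier results of these data known. Replicate numbers were not used to pair the samples in the main fit. Deviations of same-numbered arrays correlated between groups by -0.63 to 0.51, with 8 of 21 above 0.1, which cannot decide whether the samples were paired. No 2 arrays held identical values (0 of 91 pairs). Sequences of the members were not analysed here. The alternatives tried were the background correction, the normalization, the summary over probes, the variance model, the groups in the fit, a minimum change of 2-fold, a filter on dim transcripts, the deposited value table, the replicate number or the reading day as a block, a single reading day, array weights, the probe slope as a covariate, the 4 dim arrays left out and each array left out in turn. Means without the 15 min groups were added after the data were seen.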

Additional observations from a re-analysis of the deposited data

Results flagged for a closer look

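The level of Acp2 differed between females mated to D. arizonae and to D. mojavensis males, with RNA of the ejaculate not told apart from the female's own and the reading day nearly aligned with the male's species. The log2 difference of heterospecific and conspecific groups, which is also the difference of their changes from the shared virgins, was 4.14 at 15 min (limma adjusted p = 0.014) and 3.17 over the 3 times (adjusted p = 0.0013). Acp2 was above background on 6 of 6 heterospecific and 0 of 6 conspecific arrays, so as folds these differences are at least 10.3-fold and at least 4.92-fold. The call at 15 min was lost in 6 of 30 alternatives, among them the deposited value table and the minimum of 2-fold, which repeat the main fit and could not lose it. Without heterospecific 15 min replicate 2 the fold there was at least 5.03. Without the 15 min groups the mean difference of 2 h and 6 h was 2.68 (adjusted p = 0.0294). No group had enough arrays for a test of single arrays that stand apart.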

How the results depend on the processing

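Over 32 alternatives and 2011 refits of a member in a comparison, 21 calls were lost, 30 were gained and 0 changed sign, and in 56 refits a difference below the threshold changed sign. The count of called Acp transcripts differed as follows. For heterospecific 15 min against virgin, where 1 was called, it was 2 with a normexp offset of 0, with trend and robust settings and with the reading day as a block, and 0 with no background correction, with the compared groups alone and without the 4 dim arrays. For the mating types at 15 min, also 1, it was 2 with the day as a block and 0 with no background correction, the compared groups alone, the probe slope as a covariate (Acp2 at 4.11, adjusted p = 0.0595) and without the 4 dim arrays. For the mating types over the 3 times, also 1, it was 2 with an offset of 0 and with trend and robust settings, and 0 without the 4 dim arrays. For heterospecific over the 3 times against virgin, also 1, it was 0 with no background correction, the compared groups alone (adjusted p = 0.0719), array weights (0.0874) and without the 4 dim arrays (0.206). At 2 h, where 0 were called against either virgin or conspecific, it was 1 with an offset of 0, median scaling and trend and robust settings, and between the mating types at 6 h it was 1 on day 1 alone. The cause was not tested for these changes, except that the last settings hold fewer arrays. With single arrays left out the counts were 0 to 2 against virgin and 0 to 2 between the mating types at 15 min, 0 to 1 at 2 h and at 6 h in both comparisons, 1 to 2 between the mating types and 0 to 2 against virgin over the 3 times, 0 to 1 for heterospecific 2 h and 0 to 2 for 6 h against 15 min, and 0 to 1 for the difference of that change between the mating types. With the replicate number as a block no count of called Acp transcripts changed, and Acp2 over the 3 times was at 3.17 (adjusted p = 0.00156) between the mating types. With the filter on dim transcripts Acp48 was not tested. The log2 difference of Acp2 between the mating types over the 3 times was called in 29 of 30 alternatives. Of these, the deposited value table held the same intensities and the minimum of 2-fold used the same fit, so both repeat the result. The alternatives also hold refits that leave 1 array in a group. Means without the 15 min groups, chosen after seeing the data, gave 2.54 for Acp2 against virgin (adjusted p = 0.0362). Signal over background limits all values of Acp48 and the conspecific and virgin values of Acp2 and Acp11.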
